A study of Rattus norvegicus with 6 samples.

Results

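Ubiquitin-specific proteases of the Usp family were examined in bone marrow mesenchymal stem cells of the rat, plastic-adherent cells from which bone, cartilage and fat can be grown. The members are all genes of the deposited count table whose symbol begins with Usp and a number, apart from Usp18 and Usp9y, which makes 48 of 21026 genes. Polyadenylated RNA was sequenced from 3 libraries labelled aged and 3 labelled young, numbered as biological replicates in each group. The labels give no age, sex, strain, passage or culture condition for either group, and no treatment is named for either. No label ties a library to an animal of its own, so p-values reflect the scatter among these 6 libraries, part of which may be technical.

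Ubiquitin is a small protein that cells attach to other proteins to mark them for breakdown, sorting or a change of activity, and deubiquitinases take it off again. The Usp enzymes are the largest deubiquitinase family: cysteine proteases that share a catalytic domain and differ in the parts around it, which set where in the cell each one acts and on which proteins. In stromal cells they bear on mitophagy, on DNA repair, on the p53 pathway and on the TGF-beta and Wnt signals that guide bone formation. The roles given below come from work on human and mouse proteins. Usp6nl, a member by its symbol, is by textbook knowledge no protease but a GTPase-activating protein that speeds GTP hydrolysis by Rab GTPases. It stays in the counts because the symbol rule takes it in.

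Most of the family was higher in aged cells. Of the 48 members, 43 had enough counts to be tested, 32 of these rose and 9 fell in aged libraries, and 2 passed in neither direction (threshold of 0.05 on p from the quasi-likelihood F test of edgeR, adjusted by Benjamini-Hochberg over all 14273 tested genes). The whole table moved as well: 86.4% of tested genes were called, 44.7% higher and 41.8% lower in aged libraries, against 74.4% and 20.9% of the tested members. Rises of at least 2-fold were called for 23 members (29.4% of all tested genes) and falls of at least 2-fold for 2 (21.0% of all tested genes), Usp11 and Usp2. The 8 members Usp15, Usp9x, Usp37, Usp31, Usp45, Usp34, Usp24 and Usp25 rose at least 8-fold, a size called for 9.37% of all tested genes. The median log2 fold change, aged over young, was 1.22 over the tested members and 0.05 over all tested genes. In 42 of the 43 members the aged and young libraries did not overlap, which was so for 87.5% of all tested genes.

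**Figure D1:**
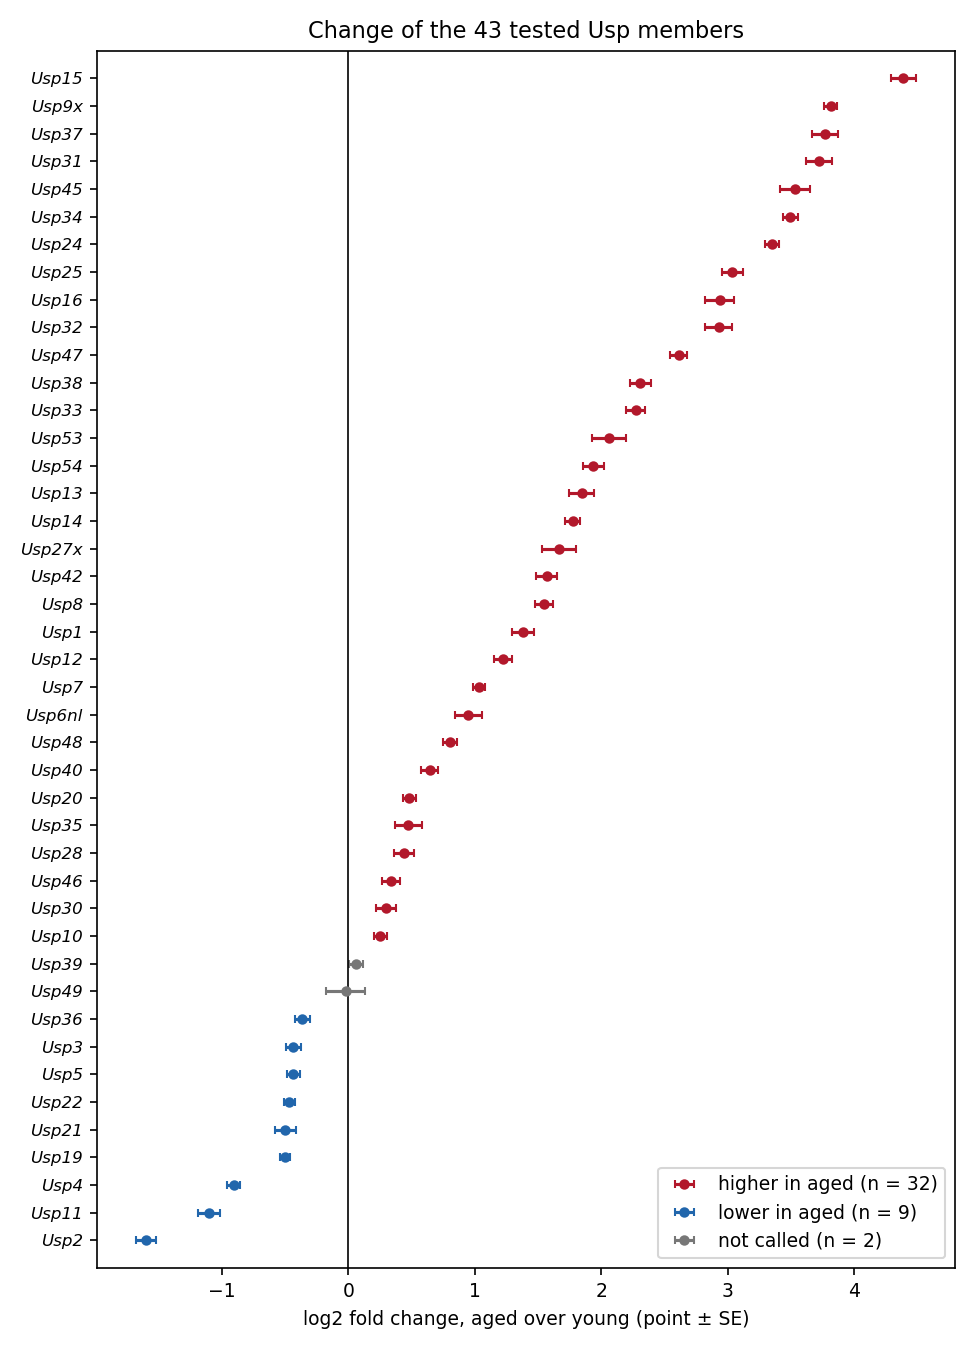
Log2 fold change, aged over young, of the 43 tested members (x axis, point ± SE from the edgeR fit), ordered from the largest rise at the top to the largest fall at the bottom and coloured by call. The points run from 4.39 for Usp15 to -1.60 for Usp2, with 32 called higher, 9 called lower and 2 not called.

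Total counts were 34638874 to 38921547 in aged libraries and 40180480 to 42479626 in young libraries, and levels are given below as CPM, read counts brought to a common library size after TMM scaling, which corrects library totals for a shift in the bulk of the genes. With library totals as the only scaling, the median log2 fold change of the tested genes moved up by 0.34; then 54.0% of all tested genes were called higher and 32.6% lower, and 33 members were called higher and 5 lower. Mitochondria-encoded transcripts took 4.33% ± 0.113 of all counts in aged libraries and 1.18% ± 0.157 in young ones (SD, n = 3 each). Of 12 stromal markers, 3 rose, 8 fell and Eng was not called, and 11 had far more counts than the floor of 3 in every library. Col1a1 had 10932 ± 41.6 CPM in aged and 19586 ± 202 CPM in young libraries, and Cxcl12 fell 16.7-fold, whereas Nt5e rose 4.48-fold and Itgb1 1.63-fold. Lepr, the third that rose, had 28, 26 and 14 counts in aged libraries, against 1, 2 and 10 counts in young libraries, below the floor in 2 of them. The 13 myeloid markers found in the table summed to 43.8 to 44.96 CPM in aged and 93.6 to 96.4 CPM in young libraries, but the 4 that could be tested went both ways. Csf1r, a receptor of macrophage growth factor, rose 67.5-fold (21.8 ± 0.552 CPM in aged and 0.321 ± 0.182 CPM in young libraries), while Lyz2 fell 57.8-fold, Cd14 3.85-fold and Cd68 3.40-fold. Ptprc, the common marker of blood cells, had at most 0.0256 CPM in any library and C1qa none, and the part of these markers in the changes of the Usp genes was not tested. Summed endothelial markers were at 0.359 to 0.678 CPM in aged and 0.211 to 0.471 CPM in young libraries, with Emcn at 0. Tek, the 1 endothelial marker tested, was called 13.2-fold higher, at 15, 25 and 10 counts in aged and 2, 1 and 0 in young libraries. Summed lymphoid and erythroid markers were under 1 CPM in every library. Summed CPM of 15 proliferation genes was 184 to 187 in aged and 976 to 1013 in young libraries. Of them 14 fell, from 1.22-fold for Mki67 to 44.1-fold for Birc5. Pcna rose and alone had 97.6 to 103 CPM in aged and 50.3 to 60.4 CPM in young libraries. The part of proliferation in the changes of the Usp genes was not tested. In RefSeq GRCr8, 11 members overlap another protein-coding gene, among them Usp5, Usp16, Usp30, Usp33, Usp34, Usp37, Usp42 and Usp49, and without a stated strand setting the reads of the overlapping genes cannot be told apart. In bulk RNA, fewer cells with a transcript and less of it per cell cannot be told apart.

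The promoter windows of 4 members are printed here because they belong to the members at the ends of the range: Usp15 rose more than any other member, its relatives Usp4 and Usp11 fell, and Usp2 fell most. Each window is 300 bases of the rat assembly GRCr8 from RefSeq, 250 before to 50 after the annotated gene start, printed 5′ to 3′ on the strand of the gene. Capitals mark matches, on either strand, to GGGCGG (the box of Sp and KLF factors), CCGGAAG (ETS factors), CCAAT (NF-Y), GCGCATG (NRF1), CACGTG (the E-box of Myc and Usf), TGACGTCA (CREB and ATF) or AAGATGG (YY1). The Usp15 window lies at chr7:60734050-60734349, minus strand, that of Usp4 at chr8:117914405-117914704, plus strand, that of Usp11 at chrX:4042987-4043286, minus strand, and that of Usp2 at chr8:53310620-53310919, plus strand.
Usp15: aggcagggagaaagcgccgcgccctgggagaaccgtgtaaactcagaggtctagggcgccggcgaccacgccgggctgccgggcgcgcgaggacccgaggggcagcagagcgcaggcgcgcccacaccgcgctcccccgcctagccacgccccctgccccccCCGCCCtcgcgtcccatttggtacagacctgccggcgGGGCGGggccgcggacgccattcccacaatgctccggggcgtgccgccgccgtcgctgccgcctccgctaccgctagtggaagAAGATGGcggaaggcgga
Usp4: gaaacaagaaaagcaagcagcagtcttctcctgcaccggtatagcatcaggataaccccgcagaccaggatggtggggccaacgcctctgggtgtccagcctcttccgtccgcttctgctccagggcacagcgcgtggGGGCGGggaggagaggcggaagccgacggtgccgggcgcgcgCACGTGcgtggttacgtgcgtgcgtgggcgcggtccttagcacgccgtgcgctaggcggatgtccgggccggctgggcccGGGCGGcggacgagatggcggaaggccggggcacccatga
Usp11: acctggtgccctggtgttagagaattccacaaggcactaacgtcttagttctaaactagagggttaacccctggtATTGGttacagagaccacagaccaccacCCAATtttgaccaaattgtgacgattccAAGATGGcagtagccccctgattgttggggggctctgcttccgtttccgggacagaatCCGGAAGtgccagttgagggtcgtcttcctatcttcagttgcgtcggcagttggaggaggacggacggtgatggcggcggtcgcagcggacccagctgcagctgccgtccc
Usp2: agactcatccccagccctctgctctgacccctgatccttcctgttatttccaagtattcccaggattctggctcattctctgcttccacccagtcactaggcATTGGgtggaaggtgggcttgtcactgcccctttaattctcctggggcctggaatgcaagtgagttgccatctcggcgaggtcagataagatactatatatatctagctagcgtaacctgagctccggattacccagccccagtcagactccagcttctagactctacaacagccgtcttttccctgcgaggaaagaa

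The window of Usp15 held 2 Sp boxes, 1 YY1 core, 41 CpG pairs and 74.7% G and C, and that of Usp4 held 2 Sp boxes, 1 E-box, 34 CpG pairs and 69.0% G and C. No Sp box occurred in the windows of Usp11, at 55.7% G and C with 15 CpG pairs, and Usp2, at 51.7% with 6 CpG pairs; Usp11 held 2 CCAAT matches, 1 ETS core and 1 YY1 core, and Usp2 held 1 CCAAT match. Windows were found for 40 of the 48 members, 37 of them tested. The Sp box occurred in 22 of 27 members called higher and in 6 of 9 called lower, beside 60.8% of 11183 tested genes and 34.9% of all 27457 promoters of that length. CCAAT occurred in 4 of the 27 higher and 4 of the 9 lower members, beside 37.9% of tested genes and 37.7% of all promoters. The ETS core was found in 5 of 27 and 4 of 9 members (17.2% of tested genes, 9.22% of all promoters) and the NRF1 motif in 3 of 27 and 1 of 9 (6.69% and 3.94%). The E-box was found in 3 of 27 and 1 of 9 (9.38% and 6.65%), the YY1 core in 4 of 27 and 2 of 9 (8.24% and 7.3%), and the CREB motif in none of the 40 (3.13% and 1.91%). Matches of different motifs may overlap and were counted each on its own; they are letters in a window, not shown sites. Across the 37 tested members, promoter G and C content and log2 fold change had a Pearson correlation of 0.23, and across 11183 tested genes one of -0.08, both given as descriptions because genes of the same libraries are not independent.

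Among the members that act on mitochondria and mitophagy, all 4 rose in aged cells, and by very different amounts. For comparison, 44.7% of all tested genes and 74.4% of all tested members were called higher. Usp15, which takes ubiquitin off damaged mitochondria against the ligase Parkin and also acts on SMAD proteins, had 96.3, 87.6 and 91.4 CPM in aged libraries, against 4.41, 5.33 and 3.36 CPM in young libraries. Every aged library lay above every young one by more than 10-fold, and the fitted rise was 20.9-fold (log2 4.39 ± 0.0995 SE, edgeR adjusted p = 4.8e-17), larger than for 96.7% of all tested genes. Usp8, an enzyme of endosomal sorting that also removes ubiquitin from Parkin itself, had 65.05, 65.1 and 67.00 CPM in aged libraries, against 20.3, 25.5 and 21.7 CPM in young libraries. It rose 2.92-fold (edgeR adjusted p = 9.8e-13). Usp30, the deubiquitinase anchored in the outer mitochondrial membrane that opposes Parkin, had 37.4, 34.7 and 32.1 CPM in aged libraries, against 31.3, 25.6 and 27.99 CPM in young libraries. The groups did not overlap, but only narrowly, and the rise was 1.23-fold (edgeR adjusted p = 0.0023). Usp35, which has been tied to the delay of Parkin-driven mitophagy, had 11.1, 13.3 and 13.5 CPM in aged libraries, against 9.75, 8.995 and 8.51 CPM in young libraries, a 1.39-fold rise (edgeR adjusted p = 4.7e-04). Usp30 and Usp35 were thus among the called members with the highest adjusted p, at changes close to the middle of all tested genes: 56.1% and 60.4% of tested genes had smaller log2 fold changes.

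Both members grouped with TGF-beta, BMP and Wnt signalling rose, and by similar amounts. Higher calls covered 44.7% of all tested genes and 74.4% of tested members. Usp15, which also acts on SMAD proteins, rose 20.9-fold and is grouped elsewhere, as is Usp4, which acts on a TGF-beta receptor and fell 1.87-fold. Usp9x, an X-linked enzyme that protects survival and TGF-beta pathway proteins from breakdown, had 301, 296 and 282 CPM in aged libraries, against 20.4, 22.2 and 19.7 CPM in young libraries, a 14.1-fold rise (log2 3.82 ± 0.0511 SE, edgeR adjusted p = 8.2e-20). Its reads made up 10.6% ± 0.217 of all reads of the family in aged libraries and 1.48% ± 0.0859 in young ones. Usp34, which stabilises axin in the Wnt pathway, had 168, 171 and 159 CPM in aged libraries, against 14.1, 16.1 and 13.99 CPM in young libraries, and rose 11.3-fold. In both genes the spread between libraries of one group was far smaller than the step between groups.

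**Figure D2:**
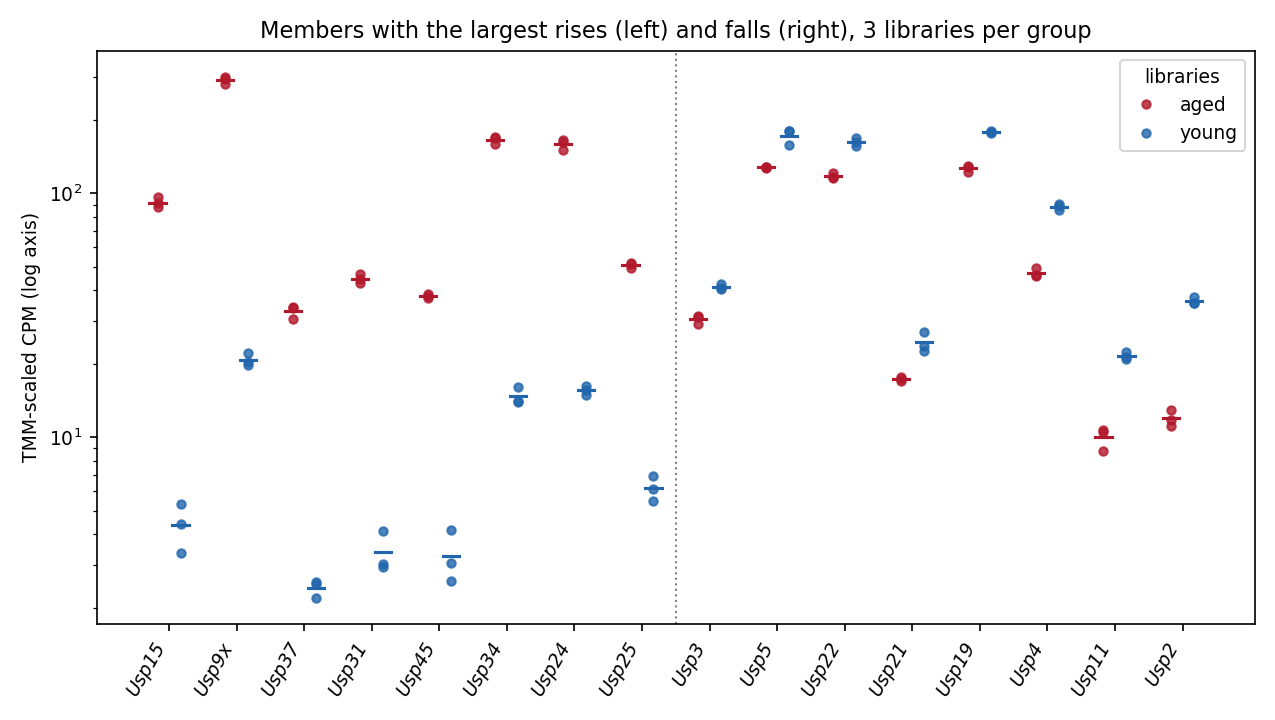
TMM-scaled CPM (log axis) of the 8 members with the largest rises, left of the dotted line, and the 8 with the largest falls, right of it; each point is 1 library, short lines are group means, aged left of young. Aged and young points do not overlap in any of the 16 genes, which were picked by this contrast from the called members. Among all tested genes 87.5% do not overlap. The rises on the left span 8.21-fold to 20.9-fold, whereas the falls on the right span 1.35-fold to 3.03-fold.

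Enzymes of DNA repair and replication mostly rose, as did the family. Of 10 listed members 9 were tested, 8 rose (88.9%) and 1, Usp11, fell (11.1%), with a median log2 fold change of 1.38. Shares higher and lower were 74.4% and 20.9% over all tested members and 44.7% and 41.8% over all tested genes. Usp37, which removes ubiquitin from cyclin A at the start of DNA synthesis, had 34.1, 30.7 and 34.04 CPM in aged libraries, against 2.19, 2.56 and 2.49 CPM in young libraries. Usp45, an enzyme acting on a nuclease of nucleotide excision repair, had 38.7, 37.4 and 37.8 CPM in aged libraries, against 2.58, 4.17 and 3.05 CPM in young libraries. Usp37 and Usp45 rose 13.6-fold and 11.6-fold, with levels below 5 CPM in every young library. Usp24, which acts on DNA damage proteins and p53, had 162, 166 and 150.3 CPM in aged libraries, against 16.3, 15.6 and 14.9 CPM in young libraries, and rose 10.2-fold. Usp47, which stabilises the polymerase of base excision repair, rose 6.11-fold (197 ± 2.65 CPM in aged and 32.2 ± 4.48 CPM in young libraries; SD, n = 3 each). Usp1, which with Wdr48 clears ubiquitin from Fancd2 and Pcna, rose 2.60-fold (32.02 ± 1.96 CPM in aged and 12.3 ± 1.39 CPM in young libraries). Usp7, a stabiliser of both Mdm2 and p53, rose 2.05-fold (129 ± 1.67 CPM in aged and 62.9 ± 3.68 CPM in young libraries). Usp48 and Usp28, the second of which binds the repair protein 53BP1 and protects Myc, rose 1.74-fold and 1.36-fold. Usp11, a deubiquitinase of the homologous recombination factor Brca2, had 10.5, 10.8 and 8.82 CPM in aged libraries, against 21.3, 20.97 and 22.3 CPM in young libraries, and fell 2.15-fold (edgeR adjusted p = 3.1e-09). Usp29 was not tested, with 1 count in all aged and 0 in all young libraries.

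Of 10 listed members that work on chromatin, 8 were tested, 3 rose (37.5%), 4 fell (50%) and Usp49 passed in neither direction, shares near the 44.7% and 41.8% of all tested genes, with a median log2 fold change of -0.19. Usp16, which strips ubiquitin from histones before mitosis, had 89.7, 82.6 and 82.6 CPM in aged libraries, against 10.8, 14.2 and 8.14 CPM in young libraries, and rose 7.65-fold (log2 2.94 ± 0.118 SE). Usp42 and Usp27x also rose, 2.97-fold and 3.17-fold. Usp27x is an intronless relative of Usp22, so reads that match both cannot be told apart and its value is uncertain. Usp22, the ubiquitin protease of the SAGA coactivator complex, had 121, 115 and 117 CPM in aged libraries, against 162, 157 and 169 CPM in young libraries. Usp3, a histone deubiquitinase of the damage response, had 31.4, 31.1 and 29.04 CPM in aged libraries, against 40.9, 40.4 and 42.5 CPM in young libraries. Both fell in every aged library relative to every young one, 1.38-fold and 1.35-fold. Usp21 fell 1.41-fold and the nucleolar Usp36 1.29-fold. When libraries were scaled by their totals alone, Usp3, Usp21 and Usp36 kept a negative log2 change but were no longer called, at edgeR adjusted p = 0.14, 0.072 and 0.69. With that scaling Usp22 was still called lower, but its log2 change was -0.13 in place of -0.47. Usp49 had 5.28, 5.43 and 3.95 CPM in aged libraries, against 5.21, 5.04 and 4.65 CPM in young libraries, so that the groups overlapped (edgeR adjusted p = 0.90). Usp44 and Usp51 were not tested, with 2 and 1 counts in all aged libraries and none in young ones.

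Of the enzymes that serve the proteasome and the pool of free ubiquitin, 2 rose (66.7%) and 1 fell (33.3%). Over all tested members the shares were 74.4% and 20.9%, and over all tested genes 44.7% and 41.8%. Usp14, which sits on the proteasome and trims ubiquitin from its substrates, had 116, 117 and 118 CPM in aged libraries, against 32.6, 37.6 and 31.9 CPM in young libraries, a 3.42-fold rise (edgeR adjusted p = 6.8e-15). Usp5, which takes unanchored ubiquitin chains apart, had 128, 128 and 127 CPM in aged libraries, against 180.4, 158 and 179.7 CPM in young libraries. Its fall was 1.35-fold, and it was not called when libraries were scaled by totals alone (edgeR adjusted p = 0.065). Usp13, the close relative of Usp5, rose 3.59-fold (30.3 ± 1.33 CPM in aged and 8.45 ± 1.23 CPM in young libraries).

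In the group of regulators of innate immunity and NF-kappaB, 3 of 4 rose (75%) and 1 fell (25%). These shares lie near the 74.4% and 20.9% of all tested members, beside 44.7% and 41.8% of all tested genes. Usp31, an inhibitor of NF-kappaB signalling, had 44.5, 46.5 and 42.96 CPM in aged libraries, against 3.02, 4.14 and 2.94 CPM in young libraries, a 13.2-fold rise (log2 3.72 ± 0.104 SE). Usp25, which acts on TRAF adaptors of cytokine receptors, had 51.9, 49.5 and 51.5 CPM in aged libraries, against 5.49, 6.96 and 6.13 CPM in young libraries, and rose 8.21-fold. The smallest rise was that of Usp20, which stabilises the DNA sensing adaptor STING, at 1.40-fold (81.03 ± 0.271 CPM in aged and 58.03 ± 3.24 CPM in young libraries). Usp4, which acts on a TGF-beta receptor and on NF-kappaB adaptors, had 46.2, 49.6 and 45.6 CPM in aged libraries, against 90.5, 88.7 and 85.7 CPM in young libraries, and fell 1.87-fold (log2 -0.90 ± 0.0509 SE, edgeR adjusted p = 1.4e-11).

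The largest fall of the family was in Usp2, an enzyme that stabilises cyclin D1 and belongs to the output of the circadian clock. It had 12.98, 11.1 and 11.7 CPM in aged libraries, against 35.5, 35.5 and 37.6 CPM in young libraries. Every aged library lay below every young one by more than 2-fold, a 3.03-fold fall (log2 -1.60 ± 0.0763 SE, edgeR adjusted p = 1.3e-12). In the same group, Usp33, which acts on a centrosome protein, rose 4.83-fold (51.3 ± 3.04 CPM in aged and 10.6 ± 0.899 CPM in young libraries), and Usp10, a p53 deubiquitinase that binds the stress granule protein G3bp1, rose 1.19-fold (56.9 ± 1.58 CPM in aged and 47.7 ± 1.44 CPM in young libraries). Among enzymes of membranes and receptors, Usp19, which is anchored in the endoplasmic reticulum, had 123, 128 and 129 CPM in aged libraries, against 181, 177 and 179 CPM in young libraries, and fell 1.41-fold. When libraries were scaled by totals alone, Usp19 was still called lower, but its log2 change was -0.16 in place of -0.50. Usp12 rose 2.33-fold and Usp46 1.26-fold.

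Usp39, a splicing factor that lacks the active site of the family, was the tested member besides Usp49 that was not called. It had 36.3, 35.1 and 35.8 CPM in aged libraries, against 34.5, 34.4 and 33.9 CPM in young libraries; the groups did not overlap, yet the fold change was 1.04 (edgeR adjusted p = 0.33), and it was called higher when libraries were scaled by totals alone (edgeR adjusted p = 6.3e-06). Usp6nl rose 1.93-fold. The 5 tested members outside any role group, Usp32, Usp38, Usp53, Usp54 and Usp40, all rose, from 1.56-fold for Usp40 to 7.62-fold for Usp32. Beside them, 74.4% of all tested members and 44.7% of all tested genes were called higher. Usp43, with 3 counts in young and none in aged libraries, and Usp50, with 3 counts in aged and none in young libraries, were too low to test, and 0 counts leave room for up to 3 counts per library, 0.0688 to 0.0840 CPM depending on the library.

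Summed over all 48 members, the family had 2797, 2785 and 2727 CPM in aged libraries, against 1402, 1409 and 1402 CPM in young libraries. The aged mean was 1.97 times the young one, 2770 ± 37.8 and 1404 ± 4.03 CPM (SD, n = 3 each; two-sided exact permutation p = 0.10, the smallest that 3 against 3 libraries can give). As a share of raw counts, free of TMM scaling, Usp genes took 0.307% to 0.314% of each aged library and 0.124% to 0.126% of each young one. Without Usp9x the sums were 2477 ± 27.9 CPM in aged and 1383 ± 2.83 CPM in young libraries, a ratio of 1.79. The members called higher and those called lower were chosen by this contrast, so their own sums, 2201 ± 35.3 and 588 ± 30.3 CPM for the higher and 528 ± 1.72 and 777 ± 26.4 CPM for the lower in aged and young libraries, only describe it. The spread of log2 CPM over the 43 tested members, which also holds differences in transcript length, had SDs of 1.25, 1.25 and 1.28 in aged libraries and 1.61, 1.48 and 1.61 in young ones.

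**Figure D3:**
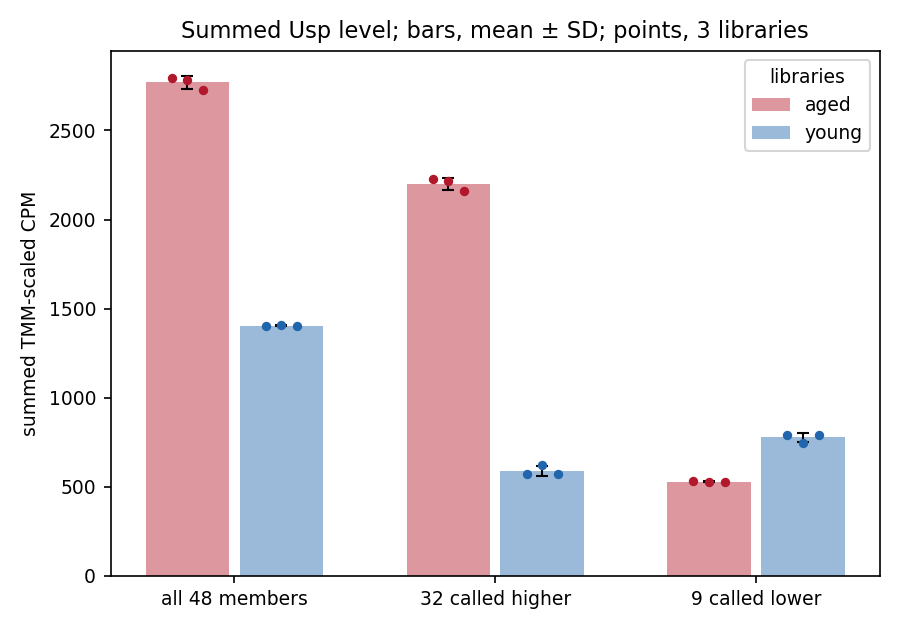
Summed TMM-scaled CPM of all 48 members, of the 32 called higher and of the 9 called lower; bars are means ± SD of 3 libraries, points are libraries, aged left of young. The total is 2770 in aged against 1404 in young libraries, and the sum of the 9 called lower is 528 in aged against 777 in young libraries.

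Related members were also set against each other. Over 12 pairs of relatives, named from general knowledge of the family, the log2 ratio of reads of one gene to the other did not overlap between aged and young libraries in 11 (exact permutation p = 0.10 for each of these 11, the smallest 3 against 3 can give, unadjusted over the 12 pairs). That is 91.7% of the related pairs, near the 93.0% of all 903 pairs among the 43 tested members, so the count says nothing particular about relatives. The median shift was 3.71-fold over the related pairs and 3.005-fold over all 903. The ratio removes the scaling of the library, so these values do not depend on TMM. Usp15 to Usp4, enzymes of the same domain layout, had log2 ratios of 1.06, 0.82 and 1.002 in aged libraries, against -4.36, -4.06 and -4.67 in young libraries, a 40.1-fold shift; their promoters are printed above. For Usp15 to Usp11 the shift was 46.1-fold, while Usp4 to Usp11, which both fell, shifted by 1.15-fold. Usp25 to Usp28 had 1.22, 1.08 and 1.26 in aged libraries, against -1.49, -1.35 and -1.42 in young libraries, a 6.08-fold shift that crossed 0. Usp13 to Usp5 shifted 4.87-fold, with Usp13 rising and Usp5 falling. Usp27x to Usp22 shifted 4.39-fold, a value that is uncertain because reads matching both cannot be told apart. Usp42 to Usp36, Usp38 to Usp35 and Usp33 to Usp20 shifted 3.83-fold, 3.58-fold and 3.46-fold. Usp46 to Usp12, which share the partners Wdr48 and Wdr20, had a ratio 1.85-fold lower in aged libraries. Usp45 to Usp16, which both rose, shifted by 1.51-fold. Usp53 to Usp54 was the pair that overlapped, at -0.12, -0.25 and -0.40 in aged and -0.48, -0.08 and -0.73 in young libraries (exact permutation p = 0.50).

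**Figure D4:**
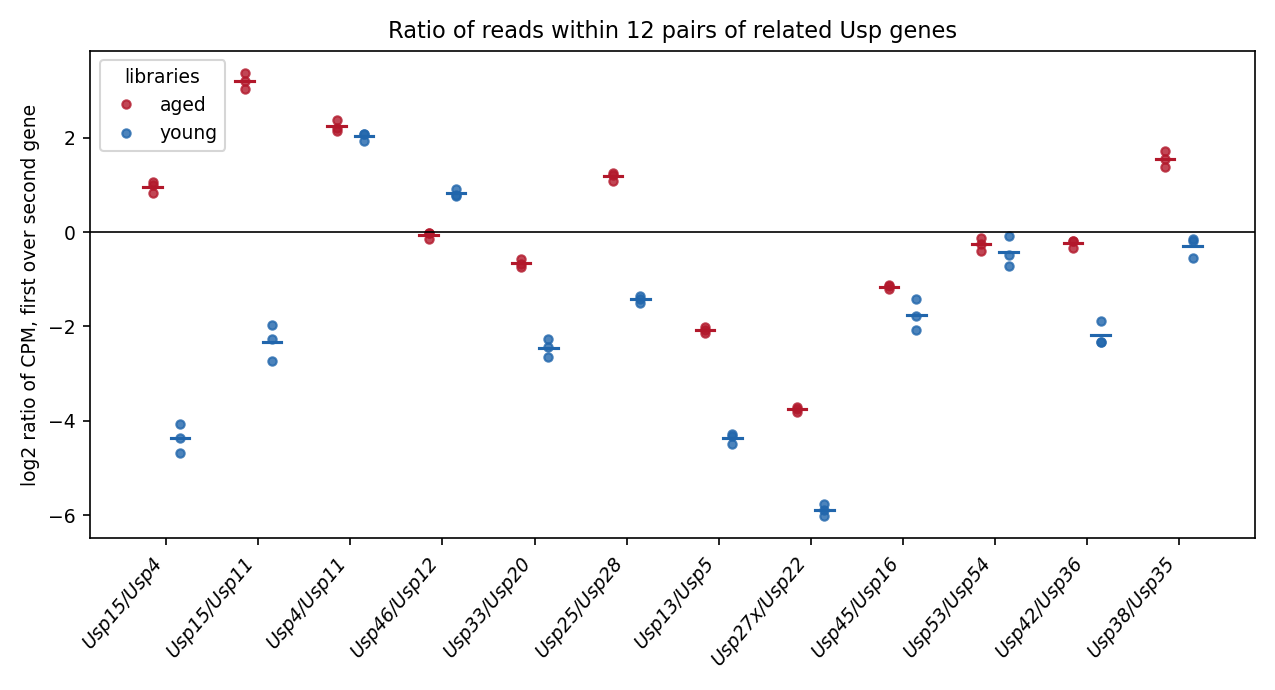
Log2 ratio of CPM of the first to the second gene in 12 pairs of related Usp genes; each point is 1 library, short lines are group means, aged left of young. The 3 aged points of Usp15 to Usp4 lie near 1 and the 3 young points near -4, and Usp53 to Usp54 is the pair whose points overlap.

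Deubiquitinases of other families were set beside the Usp genes. Of 35 listed genes of the UCH, OTU, Josephin, JAMM, MINDY and ZUFSP families and Cyld, 33 were tested, 18 rose (54.5%) and 11 fell (33.3%), against 44.7% and 41.8% of all tested genes, with a median log2 fold change of 0.17; scaled by library totals alone, 22 rose and 9 fell. The 4 with the smallest p all rose: Otud4 13.5-fold, Otud7b 3.03-fold, the histone deubiquitinase Mysm1 9.02-fold and Otud6b 5.96-fold. Mysm1 had 37.1, 36.7 and 38.7 CPM in aged libraries, against 4.02, 4.62 and 3.81 CPM in young libraries. Falls of at least 2-fold were called for Mpnd, at 3.77-fold, and Otub1, at 2.06-fold; Cyld, an NF-kappaB inhibitor with a Usp-type domain, rose 4.33-fold. The difference in counts between the Usp members and these genes was not tested.

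**Figure D5:**
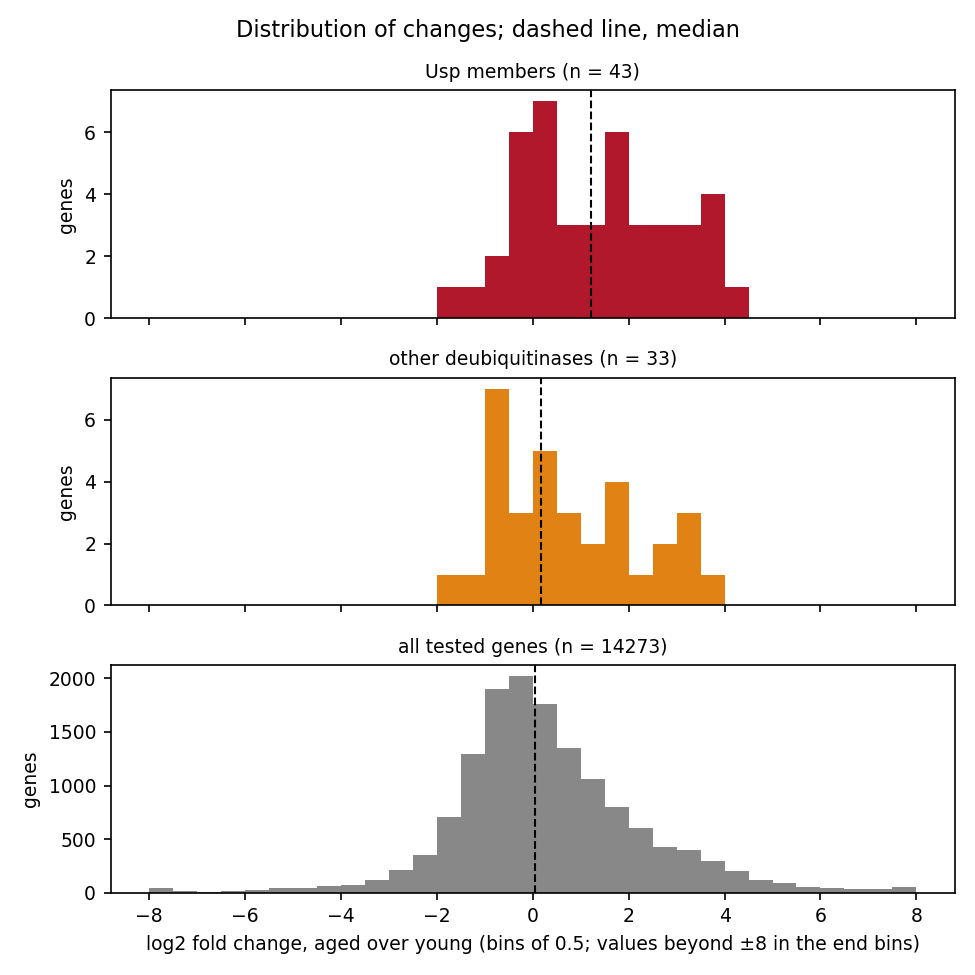
Numbers of genes (y axes) by log2 fold change, aged over young (x axis, bins of 0.5), for the 43 tested Usp members, 33 other deubiquitinases and all 14273 tested genes; dashed lines are medians. The medians are 1.22, 0.17 and 0.05.

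Of 18 partner proteins of Usp enzymes, 10 rose in aged cells (55.6%) and 8 fell (44.4%), against 44.7% and 41.8% of all tested genes. The difference between these shares was not tested. The median log2 fold change was 0.28, and scaled by library totals alone, 11 rose and 4 fell. The 3 with the smallest p were Gmps, the nucleotide synthesis enzyme that activates Usp7, Fanci, whose complex with Fancd2 is cleared by Usp1, and Stam, the endosomal adaptor of Usp8. Gmps had 78.7, 77.5 and 81.2 CPM in aged libraries, against 14.8, 15.01 and 15.4 CPM in young libraries, a 5.26-fold rise in the direction of Usp7. Stam had 70.4, 71.7 and 74.5 CPM in aged libraries, against 12.7, 15.9 and 13.99 CPM in young libraries, and rose 5.09-fold, as Usp8 rose 2.92-fold. Fanci, by contrast, had 3.05, 2.36 and 3.05 CPM in aged libraries, against 32.7, 35.1 and 31.5 CPM in young libraries, and fell 11.8-fold, and Fancd2 fell 4.42-fold, while Usp1 and its activator Wdr48 rose 2.60-fold and 1.31-fold. Pcna, the other protein that Usp1 clears, rose 1.85-fold (100.3 ± 2.52 CPM in aged and 54.2 ± 5.44 CPM in young libraries). The SAGA subunits that work with Usp22 went both ways: Atxn7l3 fell 1.37-fold, Atxn7 rose 3.81-fold and Eny2 rose 1.12-fold.

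Genes that supply and activate ubiquitin were also read. Rps27a, which encodes ubiquitin fused to a ribosomal protein, fell 2.18-fold, and Ubb, which encodes a ubiquitin chain, fell 1.34-fold. The activating enzymes parted: Uba6 had 60.6, 56.3 and 61.03 CPM in aged libraries, against 5.96, 6.83 and 6.33 CPM in young libraries, a 9.30-fold rise, and Uba1 had 192, 207 and 201 CPM in aged libraries, against 314, 302 and 313 CPM in young libraries, a 1.55-fold fall. These 4 genes kept their direction and their call when libraries were scaled by totals alone, but the falls were smaller. With that scaling the log2 change of Ubb went from -0.42 to -0.086, that of Uba1 from -0.63 to -0.30. That of Rps27a went from -1.13 to -0.79, and that of Uba6 from 3.22 to 3.55.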

How the data were processed

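The submitters' processing notes list HTSeq, HISAT2 and fastp, with no version. For the build, annotation and strand setting the sources used here give nothing. The authors deposited raw read counts per gene symbol, 1 column per library. Reads of overlapping or antisense genes cannot be told apart. The test used R 4.3.3 with edgeR 4.0.16 (filterByExpr with a minimum count of 10, TMM, glmQLFit and glmQLFTest, group as the only term); SE is the log2 change divided by the square root of F. Precision rests on 3 libraries a group. The procedure was tested on simulated data in which few genes changed, with rises and falls balanced. In these data 86.4% of tested genes were called, and the simulation did not test the scaling under that condition. Members, lists and the naming rule (the 8 largest rises and falls at a mean of 5 CPM, the mitophagy members, related pairs, the 4 highest adjusted p) were chosen with earlier results of these data known. Pairs were to be chosen by protein identity; protein sequences were not used here, and general knowledge took their place. Other genes are examples chosen after their values were seen, and the 2-fold and 8-fold limits were set likewise. Alternatives were DESeq2 1.42.0, limma-voom 3.58.1, other scalings and filters, a replicate block and leaving out each library. All 48 symbols matched RefSeq (GRCr8). Part of the list of ubiquitin genes is not reported here.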

Additional observations from a re-analysis of the deposited data

How the results depend on the processing

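The count of members higher in aged libraries was 32 or 33 under every alternative but a size of at least 2-fold, where it was 23, and 32 in each fit without 1 library. The 9 members called lower became 5 with scaling by library totals alone, where Usp3, Usp5, Usp21 and Usp36 lost the call, a scaling that moves log2 changes up by construction; apart from the size limit, each other alternative gave 9. That size limit, added after seeing the data, left 2 of the 9 lower members and 2 of the 11 lower genes of other deubiquitinase families, because fewer genes reach that size. Other deubiquitinases without 1 library numbered 17 to 18 higher and 11 to 13 lower. The log2 ratio of the summed Usp level, 0.98, was 1.32 with library totals alone and 0.96 to 0.99 without 1 library. Pairs that did not overlap numbered 11, or 12 without young replicate 2. Usp49, not called, changed sign to 0.32 with library totals alone, 0.029 with at least 50 counts in 3 libraries, and ranged between -0.10 and 0.11 when 1 library was left out, with 0.11 without aged replicate 3; the cause was not tested. With the replicate block 32 members were higher and 9 lower. Deviations of same-numbered libraries correlated at -0.0201, 0.00852 and 0.0322, and those of differently numbered ones at -0.0404 to 0.0328. No shared deviation was seen, but 3 libraries a group cannot settle whether the numbers pair them. The 5 members with at most 2 counts in any library could not be tested at this depth.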

Other observations

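Young replicate 2 lay towards the aged libraries in most members. It was the highest young library in 25 of the 32 members called higher (52.2% of all 6375 genes called higher) and the lowest in 8 of the 9 called lower (51.6% of all 5964 genes called lower). Usp16, for example, had 10.8, 14.2 and 8.14 CPM in young replicates 1, 2 and 3, and Usp53 had 6.98, 11.1 and 6.30 CPM. The mitochondria-encoded share of counts was also highest there, at 1.36%, against 1.07% and 1.12% in young replicates 1 and 3. Without that library 32 members were called higher and 9 lower, and the part of the library in the fold changes was otherwise not tested.

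In RefSeq GRCr8, 11 of the 48 members overlap another protein-coding gene, and some of these neighbours moved differently from the Usp gene. Usp34 rose by 3.49 on the log2 scale while its neighbour Ahsa2 fell by 0.38, and Usp42 rose by 1.57 while Cyth3 fell by 0.64. Another neighbour of Usp42, LOC120095931, rose by 3.86, more than Usp42 itself. Usp30 rose by 0.30 and its neighbour Svop by 1.78. Usp16 rose by 2.94 and Cct8 by 1.71, Usp37 by 3.77 and Cnot9 by 0.73, and Usp33 by 2.27 and Miga1 by 4.17. Usp5 fell by 0.43 and its neighbour Cdca3, a cell cycle gene, fell by 5.70. Whether reads were shared between these genes was not tested.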
